A study of Drosophila melanogaster with 8 samples.

Results

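Transcripts of 10 Drosophila genes, the brakes and sensors of insulin and TOR signalling and the kinase gene fray, were followed in cultured S2R+ cells and in a Stat92E mutant line. The genes are scyl, chrb, Sesn, PRAS40, ImpL2, InR, foxo, Thor, TP53INP and fray. They were taken by symbol from 13932 genes in the deposited tables, and all 10 were found and passed the filter on low counts. They had been picked from earlier results on the same libraries, in which the difference between upd and control media within each line stood out for several of them. Their differences between upd and control media are therefore given as a description, without a test.

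The libraries hold poly-A selected RNA of S2R+, a macrophage-like line of embryonic origin whose cell line label reads SR2+, and of S2R+ cells in which Stat92E was disrupted with CRISPR, whose cell line label reads STAT492E. Cells were kept for 1 hour with upd, a secreted ligand of the JAK/STAT pathway, or with control media. The 4 groups are Stat92E mutant cells with upd, Stat92E mutant cells in control media, wild-type cells with upd and wild-type cells in control media, each with 2 libraries. The labels do not say whether the mutant line is a single clone, nor whether the replicates come from separate cultures, and the p-values therefore rest on a spread between libraries that may be technical only.

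Insulin-like peptides bind the receptor InR, which activates PI3-kinase and the kinase Akt. Akt holds the transcription factor FOXO outside the nucleus and, by way of the TSC complex and Rheb, promotes the activity of the kinase complex TORC1, which drives translation and suppresses autophagy. Brakes act at each level: outside the cell on the ligand, upstream of TSC, on TORC1 itself and on the translation factors it controls, and several of these brakes are transcribed in response to stress or low nutrients.

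Gene totals were between 21600752 and 22948539 counts in mutant cells with upd and between 15146225 and 20132421 in mutant cells in control media. Both wild-type libraries of replicate 1 were shallow, with 9142736 counts with upd and 8285533 in control media, and both of replicate 2 were deep, with 30352948 and 28465332. Mitochondrially encoded transcripts took 19.1% and 17.01% of the counts in mutant cells with upd and 15.0% and 15.1% in control media. In wild-type cells they took 22.1% with upd and 20.2% in control media in the shallow libraries, and 12.8% and 14.0% in the deep ones. Stat92E itself was transcribed in both lines, at 103 to 121 CPM (counts scaled to the TMM-normalised library size) in the mutant and 157 to 178 CPM in the wild type, a log2 difference of -0.55 ± 0.10 (SE, n = 4 libraries per line, edgeR adjusted p = 0.00521). The position of the edit is not in the labels, so a transcript level is no check of the loss of the protein. Of 12 plasmatocyte markers, 9 averaged at least 1 CPM over all 8 libraries, while NimC1, He and eater stayed under 1 CPM in every group. Pxn, crq, srp, Ppn and sn passed 1 CPM in both lines, but Hml and Sr-CI only in the wild type. In mutant cells with upd and in control media Hml averaged 0.545 and 0.951 CPM, and Sr-CI 0.427 and 0.418 CPM. In wild-type cells Hml averaged 6.1 and 6.4 CPM, and Sr-CI 7.6 and 8.1 CPM. The summed level of these 12 markers ranged from 499 to 531 CPM in the mutant line and from 935 to 1429 CPM in the wild type. Col4a1 and vkg, the collagen IV genes, made up much of that gap: Col4a1 averaged 0.724 and 1.03 CPM in mutant cells with upd and in control media, against 498 and 479 CPM in wild-type cells. In bulk RNA, fewer cells of a kind and less RNA per cell cannot be told apart. Some genes listed as markers of other cell types were also read. Over all libraries aub (germline) averaged 162 CPM, PPO3 (crystal cell) 39.8, para (neuron) 35.8, Mef2 (muscle) 28.3 and mthl4 (lamellocyte) 16.9. The highest fat body marker, Lsp2, averaged 1.79 CPM, and the highest epithelial one, Fas3, 0.286 CPM. The lines thus differ in markers as well as in the edited gene. Whether a difference between the lines described here stems from Stat92E was not tested.

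Per length of transcript, the 10 genes span a wide range of abundance. ImpL2 was the most abundant, with a mean RPKM (reads per kilobase of transcript, scaled to library size, as deposited) of 405 and a range over the 8 libraries of 260 to 548. Its mean was above that of 97.6% of the 8126 tested genes. It did not overlap with fray, the next in order, which averaged 65.7 RPKM (43.5 to 81.7). The remaining means were 56.7 RPKM for scyl, 23.4 for InR, 13.2 for chrb, 11.6 for PRAS40, 10.6 for Thor, 9.88 for Sesn, 8.23 for TP53INP and 2.59 for foxo. From fray downwards, the ranges of any neighbours in this order overlapped. The lowest count behind any value was 59 reads, for Thor in a mutant library in control media.

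**Figure D1:**
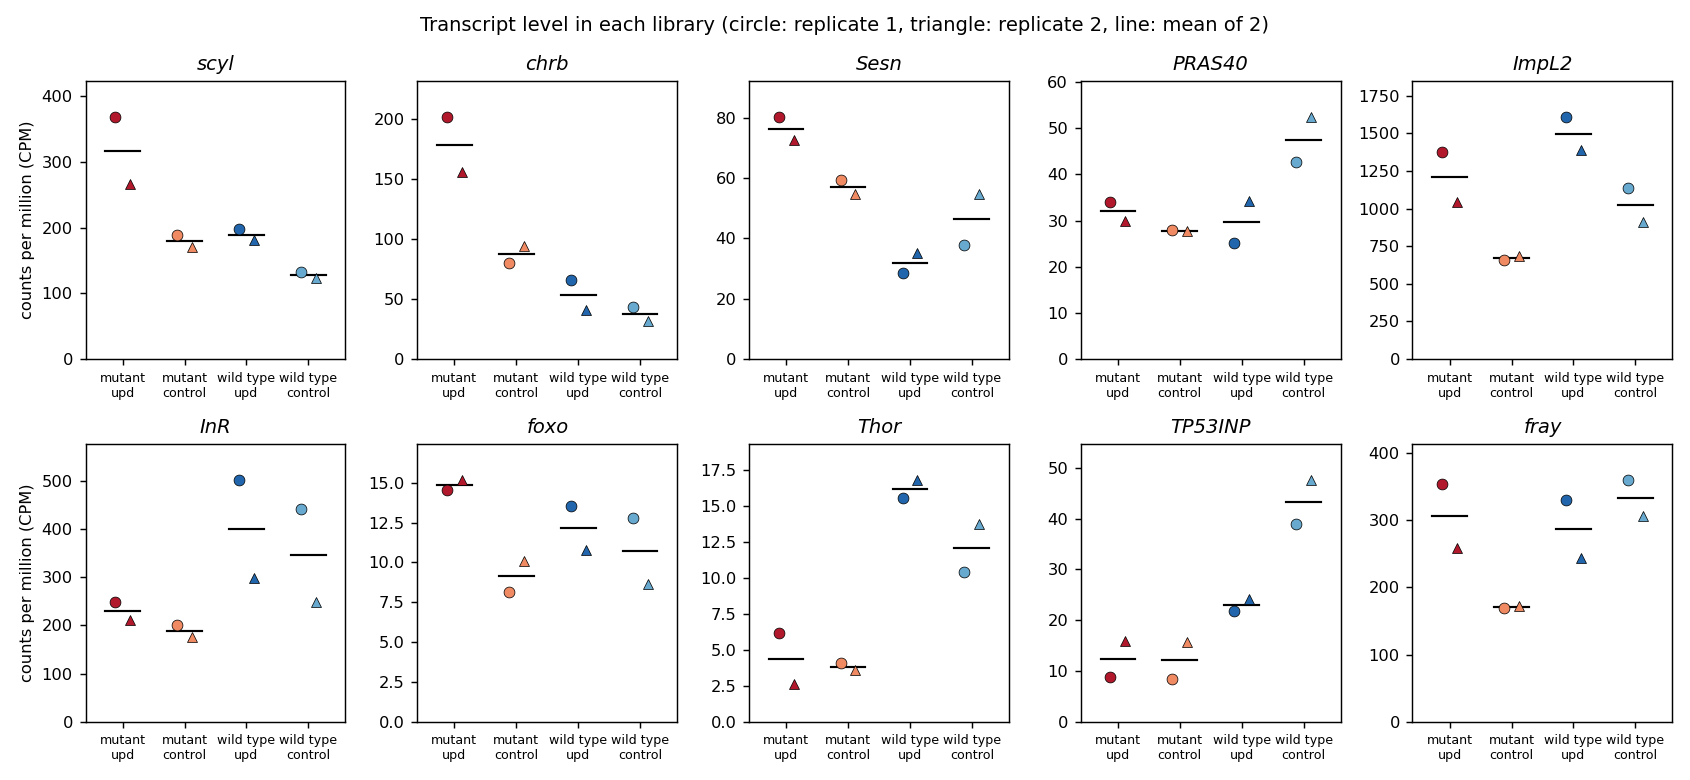
Level of each of the 10 genes in CPM (vertical axes start at 0, each gene on its own scale) in the 8 libraries, with circles for replicate 1, triangles for replicate 2 and a line at the mean of 2. For chrb the mutant libraries lie between 80.2 and 202 CPM and the wild-type ones between 31.6 and 66.2 CPM, while Thor shows the opposite order, with 2.61 to 6.15 CPM in the mutant and 10.4 to 16.8 CPM in the wild type.

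The brakes upstream of TSC come first. Scyl and chrb encode related proteins, the fly counterparts of mammalian REDD1, which lower TORC1 activity and were described in flies as genes induced by hypoxia. They lie on the same strand of chromosome arm 3L, scyl (FBgn0041094) at 11252307 to 11256172 and chrb (FBgn0036165) at 11487550 to 11499055 on dm6, with 231377 bases between them. Scyl had 368 and 267 CPM in mutant cells with upd and 189 and 171 CPM in control media. Wild-type cells had 197 and 181 CPM with upd and 132 and 123 CPM in control media. Libraries with upd were above those in control media in each line without overlap, and wild-type cells with upd reached the level of mutant cells in control media. Chrb had 202 and 156 CPM in mutant cells with upd and 80.2 and 94.5 CPM in control media. The wild-type line held 66.2 and 41.2 CPM with upd and 43.7 and 31.6 CPM in control media. Every mutant library was above every wild-type library for chrb, and in the wild type the media overlapped. Between libraries of equal replicate number, the log2 difference of upd minus control was 0.96 and 0.64 for scyl in the mutant and 0.58 and 0.56 in the wild type. For chrb it was 1.33 and 0.73 in the mutant and 0.60 and 0.38 in the wild type.

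The proportion of the pair differed between the lines. Chrb stood at 0.293 and 0.313 of the RPKM of scyl in mutant cells with upd and at 0.226 and 0.295 in control media. In wild-type cells the ratio was 0.179 and 0.122 with upd and 0.177 and 0.138 in control media. The 4 mutant libraries were all above the 4 wild-type libraries, whichever medium was used.

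Sesn and PRAS40 act on TORC1 by other routes. Sesn (FBgn0034897, 2R, 23713900 to 23734846) encodes sestrin, a stress-induced protein that restrains TORC1 through the amino acid sensing branch and AMPK. It had 80.2 and 72.7 CPM in mutant cells with upd and 59.4 and 54.9 CPM in control media, so upd libraries were higher. Wild-type libraries had 28.6 and 35.2 CPM with upd and 37.8 and 54.8 CPM in control media, so upd libraries were lower. The pairs differed by 0.43 and 0.41 log2 units in the mutant and by -0.40 and -0.64 in the wild type. PRAS40 (FBgn0267824, 2R, 14481187 to 14497312) encodes a component of TORC1 that inhibits the kinase and is phosphorylated by Akt. It had 34.1 and 29.9 CPM in mutant cells with upd and 27.9 and 27.7 CPM in control media, a small gap. In wild-type cells it had 25.2 and 34.2 CPM with upd and 42.6 and 52.4 CPM in control media. Between pairs the log2 difference of PRAS40 was 0.29 and 0.11 in the mutant and -0.76 and -0.62 in the wild type. The wild-type control media libraries were thus the highest of the 8 for PRAS40, and the other 6 lay between 25.2 and 34.2 CPM.

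Outside the cell, ImpL2 (FBgn0001257, 3L, 4224006 to 4236147) encodes a secreted immunoglobulin-domain protein that binds insulin-like peptides and keeps them from the receptor. ImpL2 had 1373 and 1045 CPM in mutant cells with upd and 656 and 687 CPM in control media. Wild-type values were 1606 and 1387 CPM with upd and 1137 and 910 CPM in control media. Upd libraries were higher in each line without overlap, by 1.07 and 0.61 log2 units in the mutant pairs and by 0.50 and 0.61 in the wild-type pairs. InR (FBgn0283499, 3R, 21570248 to 21619321), the receptor, had 247 and 211 CPM in mutant cells with upd and 200 and 176 CPM in control media. In the wild type it had 501 and 299 CPM with upd and 441 and 248 CPM in control media, and here the shallow libraries, given first, were the higher ones in both media. The wild-type difference of 0.22 log2 units between media turned to -0.19 without replicate 1 with upd and to -0.14 without replicate 2 of control media, after which the media differ in depth.

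Downstream of Akt and TORC1, foxo held 101 to 355 counts per library and Thor 59 to 524, which limits the precision of both. Foxo (FBgn0038197, 3R, 14056945 to 14087978) encodes the transcription factor that is active when insulin signalling is weak. It had 14.6 and 15.2 CPM in mutant cells with upd and 8.13 and 10.1 CPM in control media. Wild-type cells held 13.6 and 10.8 CPM with upd and 12.8 and 8.63 CPM in control media, where the media overlapped. Its pairs differed by 0.84 and 0.59 log2 units in the mutant and by 0.09 and 0.32 in the wild type. Thor (FBgn0261560, 2L, 3478434 to 3479612) encodes 4E-BP, the repressor of cap-dependent translation that TORC1 inactivates and a target of FOXO in flies. It had 6.15 and 2.61 CPM in mutant cells with upd and 4.07 and 3.599 CPM in control media. In wild-type cells it had 15.5 and 16.8 CPM with upd and 10.4 and 13.8 CPM in control media. In the mutant the pairs of Thor went opposite ways, with log2 differences of 0.60 and -0.46, and in the wild type both were above 0, at 0.58 and 0.29. Thor thus showed no common direction in the mutant line.

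TP53INP (FBgn0035542, 3L, 4406943 to 4420648) encodes a small protein, known in flies as DOR, that takes part in autophagy and acts as a cofactor of the ecdysone receptor. It had 8.82 and 15.8 CPM in mutant cells with upd and 8.51 and 15.6 CPM in control media, where values followed the replicate number and not the medium. The wild-type line had 21.8 and 24.2 CPM with upd and 38.9 and 47.6 CPM in control media. The wild-type pairs differed by -0.84 and -0.98 log2 units, the lowest wild-type values of the 10 genes, and the mutant pairs by 0.05 and 0.02.

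Fray (FBgn0023083, 3R, 18573091 to 18589459) encodes a Ste20-family kinase, the counterpart of mammalian SPAK and OSR1, which the kinase WNK activates and which phosphorylates cation-chloride cotransporters. Fray had 354 and 258 CPM in mutant cells with upd and 169 and 171 CPM in control media, which were the lowest values of the 8 libraries. Wild-type libraries held 331 and 244 CPM with upd and 360 and 306 CPM in control media, with overlap. The pairs differed by 1.07 and 0.59 log2 units in the mutant and by -0.12 and -0.33 in the wild type. An overlapping gene on the same strand, CG7694, held 91 counts over all libraries, against 2728 to 9308 counts per library for fray.

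**Figure D2:**
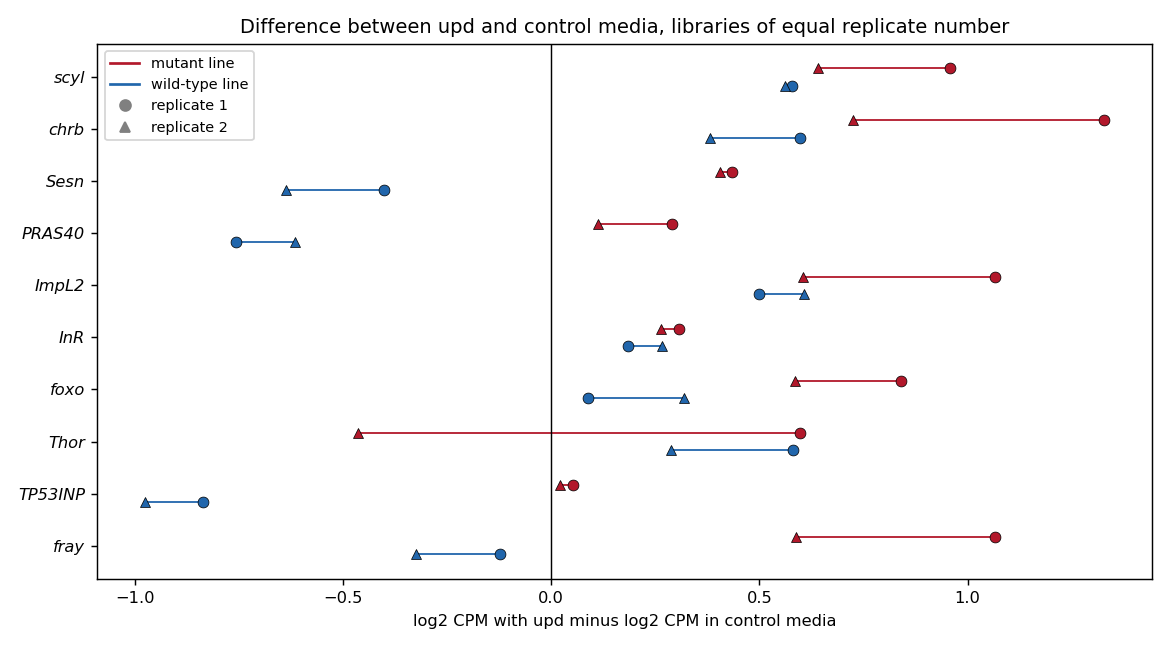
Difference in log2 CPM between upd and control media for libraries of equal replicate number (horizontal axis), with the mutant line in red above the wild-type line in blue and circles and triangles for replicates 1 and 2. For 9 of 10 genes both mutant pairs lie to the right of 0, while both wild-type pairs lie to the left of 0 for Sesn, PRAS40, TP53INP and fray.

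Counted in CPM, 9 of the 10 genes were higher with upd in both pairs of the mutant line. In that line 8 did not overlap between media, all 8 being higher. Over all 8126 tested genes 31.2% were higher and 32% lower in both pairs. Without overlap 18% were higher and 19% lower, 37% in all. In the wild-type line 6 were higher and 4 lower in both pairs, against 29.9% and 29.8% of all genes, and 6 did not overlap (3 higher and 3 lower), against 12.1% higher, 12.3% lower and 24.4% either way over all genes. Sesn, PRAS40, TP53INP and fray were higher in both mutant pairs and lower in both wild-type pairs, again in CPM. Of all genes 5.86% did so, and 5.78% had the opposite signs. These counts come from the comparisons that chose the genes, and nothing is read from them. Fitted with all 8 libraries in edgeR, the mutant log2 difference was 1.03 ± 0.26 (SE, n = 2 per group) for chrb, 0.85 ± 0.19 for ImpL2, 0.84 ± 0.21 for fray and 0.82 ± 0.18 for scyl. These 4 lay above 0.715, the 95th percentile of all tested genes, and foxo stood just below it with 0.706 ± 0.26. The others lay between 0.04 and 0.42 in the mutant line. Without replicate 1 with upd the mutant values were 0.84 for chrb, 0.64 for ImpL2, 0.60 for fray and 0.56 for scyl. In the wild-type line the fitted difference was 0.57 ± 0.18 for scyl, 0.55 ± 0.19 for ImpL2 and 0.51 ± 0.26 for chrb, against a 95th percentile of 0.58. At the lower end it was -0.91 ± 0.34 for TP53INP, -0.67 ± 0.20 for PRAS40 and -0.54 ± 0.21 for Sesn, against a 5th percentile of -0.47. Without single libraries the wild-type value ranged from 0.15 (without replicate 1 with upd) to 0.82 (without replicate 2 with upd) for chrb. For fray the same libraries gave -0.44 and -0.01. Sesn was at -0.24 without replicate 2 of control media, inside the 5th percentile above, and at -0.78 without replicate 1. Foxo was at -0.08 without replicate 2 of control media. In the mutant line Thor was at -0.56 without replicate 1 with upd, and TP53INP at -0.34 without replicate 1 of control media and at -0.45 without replicate 2 with upd, so these small values had no settled sign. The comparisons in the 2 lines share no libraries.

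Fitted without a replicate block, edgeR called 0 of 8126 genes for upd against control media in each line, or 0%, at an adjusted p of 0.05. In the mutant line 266 genes had an unadjusted p under 0.05 and DESeq2 called 2, or 0.0246% of all genes. In the wild-type line 148 genes had an unadjusted p under 0.05 and DESeq2 called 10, or 0.123%. The absence of edgeR calls depended on the fit. With a replicate block within each line, edgeR called 313 genes higher and 154 lower in the mutant, and 99 and 12 in the wild type. That fit keeps 2 residual degrees of freedom, and the labels do not say what a replicate number shares.

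Whether the level of the 10 genes, averaged over media, differed between the lines was a separate question. It was tested with the mean of both mutant groups against the mean of both wild-type groups. Libraries after 1 hour of upd thus count as much as those in control media, and the average is not a level without upd. With 2 libraries in every group the estimated difference is uncorrelated with the differences between media that chose the genes only if all groups have equal spread. Equal spread was not tested. In mutant cells the SD of fray was 68.1 CPM with upd and 1.5 CPM in control media, and that of foxo 0.44 and 1.41 CPM. The spread between libraries is also shared by both comparisons. The choice of the genes can therefore still bear on the differences, on the p-values and on the number of calls below. Chrb, Sesn and scyl were higher in the mutant line, and Thor, TP53INP, InR and ImpL2 were lower. That is 3 of 10 higher and 4 of 10 lower, in a comparison in which 10.4% of all 8126 genes passed as higher and 13.6% as lower. The largest increase was that of chrb, with a log2 difference of 1.48 ± 0.19 (SE, n = 4 libraries per line, edgeR adjusted p = 8.11e-04), which is 2.79-fold. Sesn was higher by 0.78 ± 0.15 (edgeR adjusted p = 0.0059) and scyl by 0.62 ± 0.13 (edgeR adjusted p = 0.00857). For Sesn the average came mostly from the libraries with upd, at 1.25 ± 0.21 against 0.30 ± 0.20 in control media. Thor was at 0.292 of its wild-type level, a log2 difference of -1.78 ± 0.27 (edgeR adjusted p = 0.00224), and TP53INP at 0.385, a log2 difference of -1.38 ± 0.24 (edgeR adjusted p = 0.00443). InR had a log2 difference of -0.84 ± 0.22 (edgeR adjusted p = 0.024) and ImpL2 of -0.46 ± 0.14 (edgeR adjusted p = 0.0398). Fray at -0.44 ± 0.15 (edgeR adjusted p = 0.062), PRAS40 at -0.34 ± 0.14 (edgeR adjusted p = 0.11) and foxo at 0.05 ± 0.19 (edgeR adjusted p = 0.888) did not pass. Libraries of equal replicate number deviated together within a line (r = 0.514 in the mutant and 0.485 in the wild type, across genes). The 4 libraries of a line are thus not 4 independent ones. The SE and p-values between the lines, here and for other genes, may therefore be too small.

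The 3 genes that rose were brakes upstream of TORC1, while PRAS40, the brake within TORC1, was at -0.34 ± 0.14 and did not pass. Those that fell comprised the receptor, the extracellular antagonist of its ligands, the 4E-BP gene and the autophagy gene. Mutant and wild-type libraries did not overlap for 5 of the 10 (chrb and Sesn higher, Thor, TP53INP and InR lower), against 31% of all genes, 14.7% higher and 16.3% lower. For Sesn and InR the gap was narrow: the lowest mutant value of Sesn was 54.9 CPM and the highest wild-type value 54.8 CPM, and the highest mutant value of InR was 247 CPM and the lowest wild-type value 248 CPM. The calls of chrb, Sesn, scyl, Thor and TP53INP held without any single library, with adjusted p of 0.0376 at most. The call of InR did not hold when replicate 1 of wild-type control media was left out (edgeR adjusted p = 0.0615), replicate 1 of wild-type cells with upd (0.0656), replicates 1 and 2 of mutant control media (0.0545 and 0.0731) or replicate 2 of mutant cells with upd (0.0625). With only the deep wild-type libraries its log2 difference was -0.40 (edgeR adjusted p = 0.0816). The call of ImpL2 held only when the deep wild-type library in control media or replicate 1 of mutant cells with upd was left out. Without one of the other 6 its adjusted p was between 0.0575 (replicate 2 of wild-type cells with upd) and 0.13 (replicate 1 of mutant control media), with 0.112 and 0.108 for replicate 1 of wild-type control media and of wild-type cells with upd, 0.0998 for replicate 2 of mutant control media and 0.0992 for replicate 2 of mutant cells with upd. With only the deep wild-type libraries it was 0.186.

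**Figure D3:**
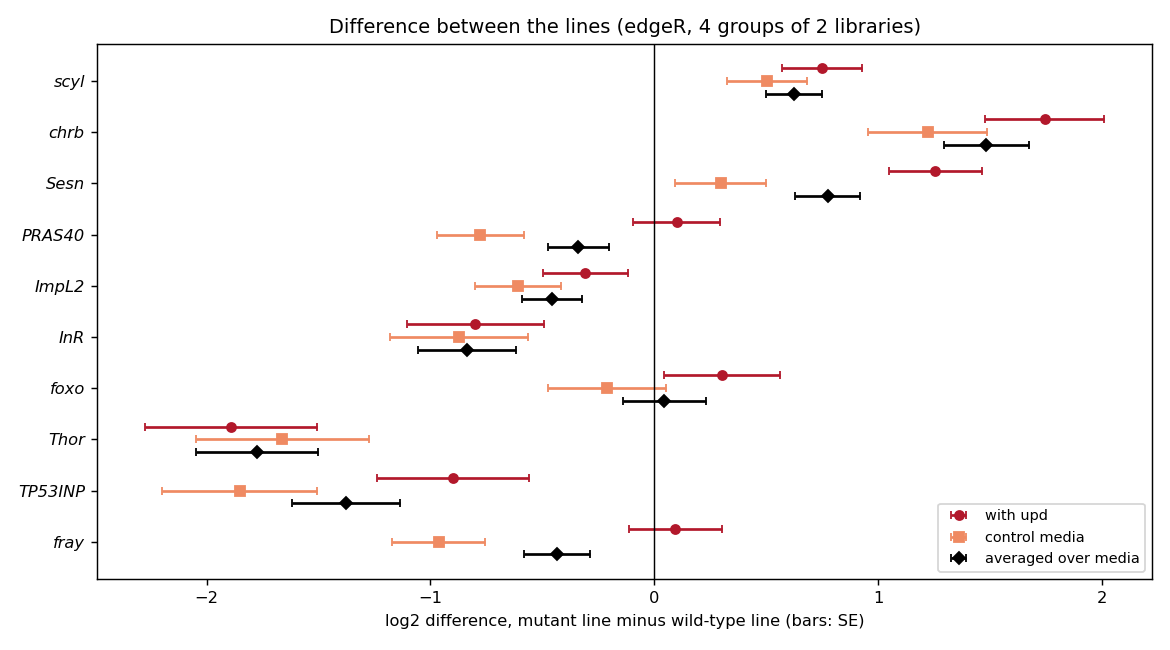
Fitted log2 difference of the mutant line minus the wild-type line (horizontal axis, bars are SE) with upd, in control media and averaged over both media, for the 10 genes. The averaged value is highest for chrb (1.48) and lowest for Thor (-1.78), and for fray, PRAS40 and foxo the values in the 2 media lie on opposite sides of 0.

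Separated by medium, the difference between the lines depended on the gene, and these values use the libraries that chose the genes, so they carry no test here. With upd, chrb was at a log2 difference of 1.74 ± 0.27 and in control media at 1.22 ± 0.27. Thor was at -1.89 ± 0.38 with upd and at -1.66 ± 0.39 in control media, and InR at -0.80 ± 0.31 and -0.87 ± 0.31. Scyl was at 0.75 ± 0.18 with upd and at 0.50 ± 0.18 in control media, and ImpL2 at -0.31 ± 0.19 and -0.61 ± 0.19. For these genes, and for Sesn and TP53INP, the sign of the difference was the same in both media. Sesn was at 1.25 ± 0.21 with upd and at 0.30 ± 0.20 in control media, and TP53INP at -0.90 ± 0.34 and -1.85 ± 0.35. Fray was at 0.09 ± 0.21 with upd and at -0.96 ± 0.21 in control media, and PRAS40 at 0.10 ± 0.20 and -0.78 ± 0.20. With upd, the differences of fray and PRAS40 between the lines were within 1 SE of 0.

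Profiles over the 8 libraries were compared by the root mean square difference of centred log2 CPM values. Among the 10 genes the closest were ImpL2 and fray, 0.28 log2 units apart, followed by ImpL2 and foxo at 0.32 and foxo and fray at 0.33, while the paralogues scyl and chrb were 0.49 apart. Over all tested genes, the nearest to scyl were CG7352 (0.10) and the ribosomal protein gene RpL26 (0.19). The nearest to chrb were CG2887 (0.26) and CG12279 (0.27), and those nearest to fray were CG7990 (0.16) and Taf12L (0.17). ImpL2 was nearest to CG9263 (0.08) and CG10527 (0.10), InR to Ncoa6 (0.10) and CG11555 (0.11), and foxo to Galphaq (0.10), which encodes a G protein subunit, and Fur1 (0.13), which encodes a proprotein convertase. Sesn was nearest to Oseg1 (0.16) and RabX6 (0.18), PRAS40 to the autophagy gene Atg17 and to FAM21 (0.17 each), Thor to CG33080 (0.11) and CG42675 (0.17), and TP53INP to Ac13E (0.26), an adenylyl cyclase gene, and CG7255 (0.31). The own spread of each profile was between 0.32 (foxo) and 0.97 (Thor) log2 units.

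The rest of the insulin and TOR network was read from 9 lists with 120 further genes, of which 107 were tested. Between the lines 8 were higher and 17 lower in the mutant, 25 of 107, with a median log2 difference of -0.07, against 24% of all genes and a median of 0.02. For upd against control media none of the 107 passed in edgeR in either line, fitted without a replicate block. In that fit 5 had an unadjusted p under 0.05 in the mutant and 3 in the wild type, and DESeq2 called 0. The calls among list genes were fewer without single libraries, 4 to 7 higher and 10 to 15 lower, and 4 higher and 11 lower with only the deep wild-type libraries. Of the 17 list genes named here, 10 kept their call without any single library. Without replicate 1 of mutant control media Ilp6 (edgeR adjusted p = 0.0881), step (0.0551), REPTOR (0.0711), Nmdmc (0.0827) and lok (0.0521) lost it. Xbp1 lost it without replicate 2 of mutant control media (0.112) and Ncc69 without the deep wild-type library in control media (0.0918), and Ilp6, REPTOR, Nmdmc, Xbp1 and Ncc69 also lost it without other libraries. The median log2 difference with upd was -0.01 in the mutant and -0.01 in the wild type.

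Among ligands and their binders 3 of 10 genes were tested and 2 were lower in the mutant. Sdr, which encodes a secreted decoy of the insulin receptor, had 0.302 and 0.898 CPM in mutant cells with upd and 0.335 and 2.56 CPM in control media. In wild-type cells it had 33.2 and 28.8 CPM with upd and 36.9 and 31.2 CPM in control media, a log2 difference between the lines of -5.12 ± 0.50 (edgeR adjusted p = 1.98e-04). Transcripts of 2 extracellular antagonists of insulin, Sdr and ImpL2, were thus lower in the mutant line, ImpL2 with the limits given above. The insulin-like peptide gene Ilp6 was lower by a log2 difference of -0.70 ± 0.18 (edgeR adjusted p = 0.0216).

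Of 11 tested genes between the receptor and Akt, 3 were higher and 3 lower in the mutant. Pdk1, the kinase that activates Akt, was at -1.09 ± 0.17 (edgeR adjusted p = 0.0021), with 89.9 and 77.2 CPM in mutant cells with upd and 61.6 and 60.5 CPM in control media. Wild-type cells held 230 and 165 CPM of Pdk1 with upd, against 142 and 93.8 CPM without it. Step, a cytohesin that promotes insulin signalling, was at -0.56 ± 0.12 (edgeR adjusted p = 0.0121), and trbl, a pseudokinase that inhibits Akt, at 0.52 ± 0.10 (edgeR adjusted p = 0.00868). Among 29 genes of the TOR complexes and their inputs 2 were higher, 4 lower and 23 did not pass. Unk, a zinc finger gene that acts downstream of TOR, was at 0.78 ± 0.13 (edgeR adjusted p = 0.00328). REPTOR-BP and REPTOR, which encode transcription factors active when TORC1 is off, were at -0.74 ± 0.16 and -0.47 ± 0.11 (edgeR adjusted p = 0.0108 and 0.0158). With only the deep wild-type libraries both differences were smaller, at -0.59 for REPTOR-BP and -0.395 for REPTOR.

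Of 9 tested genes reported as regulated by FOXO, 1 was higher and 5 were lower in the mutant, with a median of -0.70. Over all genes 10.4% were higher and 13.6% lower. Ilp6 and step, among those lower, were already counted in the lists above, and upd2 averaged only 1.02 and 0.699 CPM in mutant cells with upd and in control media. Whether FOXO activity differed between the lines was not tested. Bmm, a triglyceride lipase gene, was the one that rose (1.09 ± 0.16, edgeR adjusted p = 0.00156). The activin-like ligand gene daw (-3.18 ± 0.31, edgeR adjusted p = 2.13e-04) and puc, the JNK phosphatase gene (-1.20 ± 0.11, edgeR adjusted p = 1.51e-04), were lower. Puc is best known as a target of JNK signalling, and upd2 on this list is itself a JAK/STAT ligand gene. In the hypoxia list 1 of 9 passed, sima, the HIF alpha subunit gene, at -0.61 ± 0.12 (edgeR adjusted p = 0.00596). Whether hypoxia signalling bears on the levels of scyl and chrb was not tested.

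The integrated stress and unfolded protein list had 1 higher and 3 lower of 10. Atf6 (-1.45 ± 0.25, edgeR adjusted p = 0.00371) and Xbp1 (-0.46 ± 0.12, edgeR adjusted p = 0.0262), transcription factor genes of the unfolded protein response, were lower, and Nmdmc, a mitochondrial folate enzyme gene, was higher (0.49 ± 0.12, edgeR adjusted p = 0.019). No autophagy gene passed in edgeR among 22 tested, 6 had an unadjusted p under 0.05 and DESeq2 called 1, while TP53INP was lower. In the p53 and DNA damage list 1 of 11 passed, lok, the Chk2 kinase gene, at 0.76 ± 0.18 (edgeR adjusted p = 0.0147). Around fray, 1 of 6 genes of WNK signalling and chloride transport passed: Ncc69, a sodium-potassium-chloride cotransporter gene of the kind that fray phosphorylates, at -1.53 ± 0.40 (edgeR adjusted p = 0.0261). Ncc69 had 5.75 and 2.52 CPM in mutant cells with upd and 6.70 and 2.56 CPM in control media, against 8.97 and 15.6 CPM in wild-type cells with upd and 8.47 and 16.7 CPM in control media.

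**Figure D4:**
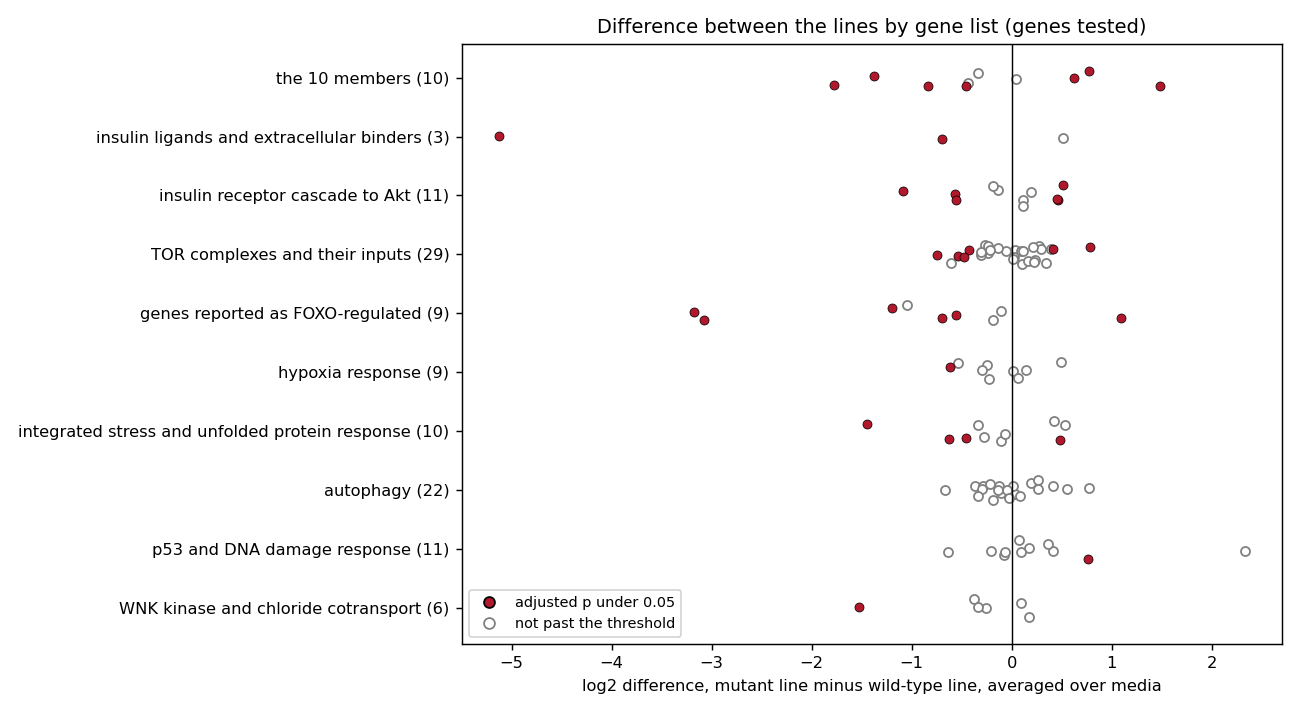
Log2 difference of the mutant line minus the wild-type line, averaged over media (horizontal axis), for the 10 genes in the top row and for the tested genes of the 9 lists below, with the number tested in brackets and filled points for an adjusted p under 0.05. Of the 10 genes 7 are filled, and in the lists 8 different genes are filled to the right of 0 and 17 to the left; a gene on more than 1 list is drawn in each.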

How the data were processed

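The 8 deposited tables, 1 per library, list whole-number counts, RPKM and a length for each FlyBase gene. The authors' RPKM follows from those counts with 1 scaling constant per library, of which gene totals are 85.2% to 90.6%, per the file headers and values. The submitters' processing notes name Trimmomatic 0.36, STAR 2.5.2b and dm6. How reads were counted, and whether by strand, is not given in the sources used here, so reads of overlapping genes could not be told apart. CG46429, CG46460 and lncRNA:CR44034, which overlap Sesn, ImpL2 and InR on the same strand, are not among the 13932 identifiers and have no counts of their own. CG46429, at 23713900 to 23733183, spans most of the Sesn gene. Whether counts of Sesn, ImpL2 and InR include reads of these genes was not tested. CG18128, on the opposite strand within Sesn, held 247 counts over all libraries. Symbols and coordinates came from Ensembl's dm6 annotation, which matched 13852 of 13932 identifiers.

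Counts were fitted with edgeR 4.0.16 in R 4.3.3 (quasi-likelihood test, TMM scaling, filterByExpr, 4 group means, no replicate block), which kept 8126 genes and 4 residual degrees of freedom. CPM uses TMM-scaled sizes, and 3 counts equal 0.0961 to 0.379 CPM. Tests were two-sided and p-values adjusted over all tested genes by Benjamini and Hochberg's method, with a threshold of 0.05. The script was tested on simulated data. The members, the lists and the rule for named genes (the 10 genes, up to 3 genes per list with the lowest p, the 2 nearest profiles per gene) were chosen with earlier results of these data known. Alternatives were DESeq2 1.42.0, limma 3.58.1 on log2(RPKM + 1) and log2(RPKM + 0.1), other scaling and filters, replicate blocks and leaving out libraries. Promoter motifs were not analysed here.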

Additional observations from a re-analysis of the deposited data

Results flagged for a closer look

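In CPM, 4 of the 10 genes went opposite ways with upd in the lines in every pair of libraries of equal number. They were higher in the mutant and lower in the wild type, as were 5.86% of all 8126 tested genes. The mean log2 difference of upd minus control was 0.83 in the mutant and -0.22 in the wild type for fray, 1.05 apart. It was 0.04 and -0.91 for TP53INP (0.94 apart), whose mutant value lay between -0.45 and 0.53 without single libraries and so had no settled sign. It was 0.42 and -0.52 for Sesn (0.94 apart) and 0.20 and -0.69 for PRAS40 (0.89 apart). The mutant signs of PRAS40 and TP53INP depended on the scaling. In deposited RPKM, PRAS40 had 10.35 and 9.95 with upd and 9.88 and 10.15 in control media, so its pairs went opposite ways. TP53INP was lower with upd in both mutant pairs, with 2.88 and 5.65 RPKM against 3.24 and 6.15. The difference between the lines was not tested, because these comparisons chose the genes.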

How the results depend on the processing

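Across 169 refits of the averaged line difference of single members, 143 kept direction and side of the threshold, 13 lost and 10 gained a call, and 3 reversed: foxo, never called, was at -0.091 without wild-type control replicate 2, -0.037 without wild-type upd replicate 2 and -0.036 without mutant control replicate 2, and at most 0.184 without any other library. Fray passed under DESeq2 (adjusted p = 0.0263), without a filter (0.0122), with limma on log2(RPKM + 1) (0.0453) and log2(RPKM + 0.1) (0.0454), with the replicate block over all libraries (0.0154) and within each line (3.32e-05), without wild-type upd replicate 2 (0.0425) and without mutant upd replicate 1 (0.0355). PRAS40 passed with the deep wild-type libraries alone (0.0471), an alternative chosen after seeing the data, and with the block within each line (0.0046). The cause was not tested. Deposited RPKM shifts the median of all genes by -0.139 to -0.178 log2 units for upd in the mutant, where PRAS40 was then at 0.018 and TP53INP at -0.116 on log2(RPKM + 1).

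Without single libraries the members called were 3 higher and 2 to 5 lower, the list genes 4 to 7 higher and 10 to 15 lower, and all genes 463 to 714 higher and 731 to 1008 lower between lines. In control media all genes gave 80 to 266 and 173 to 516 (266 and 463 with all libraries), with upd 99 to 291 and 283 to 487 (324 and 531 with all), and for upd against control 0 to 2 higher in wild-type cells and otherwise 0. Pairs of counts give higher, then lower. With the deep wild-type libraries alone the counts were 4 and 11 for lists, 535 higher over all genes, 160 and 310 with upd, and 107 and 224 in control media. Without a filter they were 14 higher for lists, 557 and 872 with upd, 487 and 807 in control media, and for upd against control 17 higher and 1 lower in the mutant and 16 higher in wild-type cells. A mean RPKM of at least 5, which tests fewer genes, gave 551 higher over all genes, 158 in control media and 206 with upd. DESeq2 gave 436 and 702 in control media, and for upd 1 higher and 1 lower in the mutant and 10 higher in wild-type cells. Either limma fit gave 4 higher for lists.

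Libraries of equal number deviated together within a line (r = 0.514 in the mutant and 0.485 in the wild type, across genes) but not between lines (-0.051 and 0.038), and the labels do not say what a number shares. With the replicate block within each line the counts were 26 and 32 for lists, 2121 and 2125 over all genes, 1572 and 1669 with upd, 1439 and 1615 in control media, and for upd against control 313 and 154 in the mutant and 99 and 12 in wild-type cells. That block leaves the spread between replicates out of the error between lines. With the replicate block over all libraries they were 16 higher for lists, 528 and 719 in control media, 605 higher with upd and 1 higher for upd in wild-type cells.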
